A study of Arabidopsis thaliana with 33 samples.

Results

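The third of 7 flower samples of the male-sterile Arabidopsis thaliana mutant ms1 is described here against wild-type flowers collected in the same way. It was measured on 3 of the 33 arrays of the series, chosen by their titles as sets 1, 2 and 3 of sample 3. Per the labels, sample 3 pooled 2 consecutive flowers of each inflorescence, taken from 50 plants grown under constant light at 20 °C, and the sets are biologically independent and were collected on different days. Each array paired mutant RNA in one dye with wild-type RNA in the other, and the dyes were exchanged in set 2, where Cy5 labelled the mutant; in sets 1 and 3 it carried Cy3. The other 6 samples of this flower series, 3 arrays each, entered the same fit. Whole inflorescences of ms1 and nzz, with all buds up to maturity, and early buds of ap3, 4 arrays each, are used only for values set side by side. The allele and the ecotype of these mutants are not given in the labels used here.

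MS1 is a nuclear regulator with a PHD-finger domain that acts in the tapetum, the cell layer that nourishes developing pollen and makes the material of its wall and coat. Without MS1 the tapetum does not complete its programme, and the pollen degenerates after the microspores are released. Tapetal genes and pollen genes are therefore the groups in which differences between ms1 and wild-type anthers are usually looked for. Entire flowers were collected, so fewer cells of one type and less RNA per cell cannot be told apart in these values. MS1 itself has no named probe here, so the mutant label could not be checked on it. The table holds ratios and no levels, so the tissue could not be checked by its markers either.

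All values are log2 ratios of ms1 over wild type, and negative values mean lower in ms1. The deposited values do not state their direction or their log base. The direction used is likely and not settled: it rests partly on pollen genes being lower in ms1, and if the sign is the other way round, what is called lower below is higher and the reverse. The base was taken as 10, and with base 2 every log2 value would be 3.32 times too large. No value lies beyond 6.64 on the log2 scale, where the deposited table stops, and a value at this limit is a bound. On the 3 arrays 3.76%, 9.87% and 2.45% of gene-probe values (sets 1, 2 and 3) were at the limit, and 97.5% of these pointed toward more Cy5. Over all 26090 gene probes sets 1 and 3 correlated at r = 0.37, and set 2 at r = -0.28 with set 1 and -0.17 with set 3. Over the 17408 probes never missing or at the limit in the series, the values were 0.15 between sets 1 and 3, 0.08 between sets 1 and 2, and 0.38 between sets 2 and 3. These are correlations across probes of one hybridised table, given as a description.

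The numbering of the samples needs care before any reading by age. By the labels, mature flowers make up sample 1, and sample 7 holds the meristem and its youngest buds. VGD1, which encodes a pectin methylesterase of growing pollen tubes, had ratios of -0.60, 0.26, -0.64, -3.65, -4.20, -4.20 and -3.73 in samples 1 to 7 (SE 0.32 each). Its neighbour VGDH1 stood at -0.70 in sample 1 and at -4.65 in sample 7 (SE 0.95). Both genes, known from mature pollen, were thus low relative to wild type in the samples labelled as younger and not in the one labelled as mature. What underlies this was not tested, and samples are called by number with no order of age.

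In sample 3, many genes differed from wild type, some of them by more than an order of magnitude on all 3 arrays. limma's test called 399 of 26057 probes at a Benjamini-Hochberg adjusted p under 0.05 (1.53%), 217 lower (0.833%) and 182 higher (0.698%) in ms1. Unadjusted, 2391 probes had a p under 0.05. The median log2 ratio was -1.77 among the lower calls and 1.67 among the higher ones, and 75.6% and 75.8% of them differed at least 2-fold. All 3 arrays had a value of one sign in 215 of the lower and 180 of the higher calls. Of the calls, 184 are on probes that are unnamed here. The precision is limited by the 3 arrays. Without the sample 3 array of set 2 the count was 204, and without that of set 1 or 3 it was 296 or 346. Here and below, a set left out means its sample 3 array alone, and the other arrays of that set stayed in the fit.

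Genes were taken here that were called and named, with the same sign on all 3 arrays and no value at the limit. Agreement of their arrays in sign follows from this choice and adds no support. Among them the 12 lowest ratios belonged to loci for which the annotation used here gives no symbol. They lay between -5.65 and -4.05, which is 50.2-fold to 16.5-fold lower, with adjusted p from 3.27e-06 to 0.0182. AT1G26720 stood at -6.44, -5.52 and -5.45 in sets 1, 2 and 3, and its estimate was -5.65 ± 0.45 (SE, n = 3 arrays, adjusted p = 3.95e-06). The gene directly beside it on chromosome 1, AT1G26710, read -6.38, -5.52 and -5.34, with an estimate of -5.56 ± 0.90 (adjusted p = 0.00285). The arrays of both genes lay within about 1 log2 unit of each other, although set 2 carried the opposite dyes. The probes of the genes have consecutive numbers, and whether they share signal was not tested. AT1G30020 gave -6.55, -5.17 and -5.90 (-5.61 ± 0.84, adjusted p = 0.00148). AT1G75920 had the widest spread of these, with -5.70, -6.44 and -4.27 (-5.50 ± 0.90, adjusted p = 0.00428). By the RefSeq annotation AT1G75920 lies between EXL4 and EXL6, lipase genes known for their products in the pollen coat, and the gene after EXL6 is ATA27. Neither EXL4 nor EXL6 was measured by a named probe.

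AT1G06260 read -6.02, -4.48 and -4.78 (-5.13 ± 0.59, 35.1-fold lower, adjusted p = 0.000143). AT3G54530 read -5.0, -3.98 and -4.24 (-4.32 ± 0.33, adjusted p = 3.27e-06), and AT4G37900 -5.28, -4.00 and -3.52 (-4.17 ± 0.32, adjusted p = 3.27e-06). In each of these 3 genes set 1 was the lowest array, as it was in 11 of the 12. The others were AT5G44400 (-4.51 ± 0.87), AT2G03850 (-4.48 ± 0.91), AT5G07600 (-4.36 ± 0.71), AT2G03200 (-4.21 ± 0.69) and AT5G16960 (-4.05 ± 0.32). Without set 2 the call was lost for AT1G26710 (adjusted p = 0.0747), AT1G75920 (adjusted p = 0.119), AT5G44400 (adjusted p = 0.242), AT2G03850 (adjusted p = 0.234) and AT5G07600 (adjusted p = 0.0581). Without set 1 it was lost for AT5G44400 (adjusted p = 0.0751), AT2G03850 (adjusted p = 0.109) and AT5G07600 (adjusted p = 0.0501), and without set 3 for AT2G03850 (adjusted p = 0.0664). With the sets as a random block, AT5G44400 (adjusted p = 0.092) and AT2G03850 (adjusted p = 0.113) were lost too. The estimates themselves stayed at -3.91 or below in all of these.

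The 12 highest called and named genes with no value at the limit were also required to have the same sign on all 3 arrays. Agreement of their arrays in sign therefore adds no support. Most of the 12 were loci without a symbol too, and all their arrays lay above 1. Their estimates lay between 3.03 and 4.52, which is 8.16-fold to 22.9-fold higher, with adjusted p from 4.42e-06 to 0.0497. AT1G63140 stood at 4.44, 4.71 and 4.08 in sets 1, 2 and 3 (4.52 ± 0.89, adjusted p = 0.0136). AT5G02540 gave 4.08, 4.88 and 3.63 (4.26 ± 0.34, adjusted p = 4.42e-06), and AT1G13910 4.36, 4.31 and 3.48 (4.01 ± 0.33, adjusted p = 5.12e-06). Every array of these 3 genes was above 3. AT3G07450 read 4.60, 3.69 and 4.09 (3.99 ± 0.39, adjusted p = 2.62e-05). AT1G27710 read 3.64, 2.84 and 3.65 (3.38 ± 0.44, adjusted p = 0.000452). Set 2 was the highest array in 8 of the 12.

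AT2G01580 (4.28 ± 0.92), AT5G15140 (3.87 ± 0.71), AT5G46230 (3.59 ± 0.39), AT1G18960 (3.49 ± 0.81), AT2G38250 (3.15 ± 0.41) and AT1G47480 (3.03 ± 0.71) completed the loci without a symbol among the 12. SWEET3, a member of the SWEET family of sugar transporters, was the one with a symbol, at 3.06, 4.34 and 2.75 (3.39 ± 0.40, 10.5-fold higher, adjusted p = 0.000173). Its 3 arrays all lay well above 0. Without set 2 the call was lost for AT1G63140 (adjusted p = 0.154), AT2G01580 (adjusted p = 0.385), AT5G15140 (adjusted p = 0.156), AT1G18960 (adjusted p = 0.749) and AT1G47480 (adjusted p = 0.523). Each of these was also lost without set 1 (adjusted p from 0.0615 for AT5G15140 to 0.22 for AT1G47480), and AT1G63140 (adjusted p = 0.0734), AT2G01580 (adjusted p = 0.054) and AT1G47480 (adjusted p = 0.0575) without set 3. With the sets as a fixed block AT1G47480 missed the threshold (adjusted p = 0.0584). With a random block AT1G63140 (adjusted p = 0.0963), AT2G01580 (adjusted p = 0.148), AT1G18960 (adjusted p = 0.236) and AT1G47480 (adjusted p = 0.287) did so. With all 33 arrays in one fit AT1G63140 (adjusted p = 0.0887) and AT1G47480 (adjusted p = 0.332) were not called, and without the dye term AT1G18960 (adjusted p = 0.0676) and AT1G47480 (adjusted p = 0.137) were not.

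**Figure D1:**
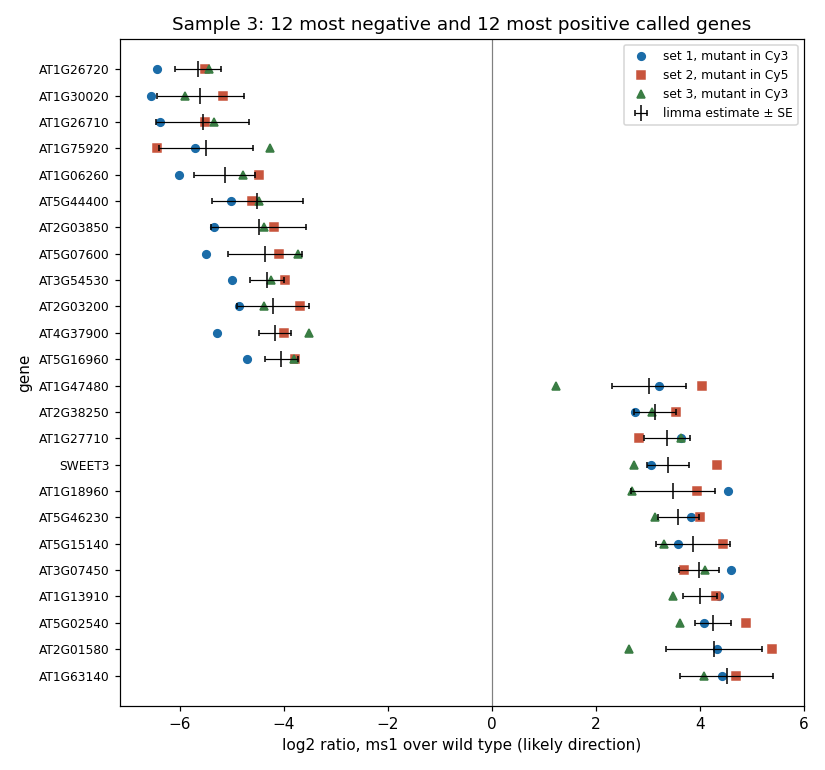
Log2 ratios of ms1 over wild type in sample 3 (horizontal axis) for the 12 most negative and 12 most positive called and named genes. The genes were required to have the same sign on all 3 arrays and no value at the limit. Points are the single arrays of sets 1, 2 and 3, and bars are the limma estimate ± SE. The arrays of the lower genes lie between -6.55 and -3.52 and those of the higher genes between 1.24 and 5.40.

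Calls with an array at the limit were fewer and more often uneven. They numbered 6 among the lower and 13 among the higher calls, and set 2 held the limited value in 11 of those higher calls. AT1G47980 was low on all arrays, at -6.64 (the limit), -5.10 and -6.11 in sets 1, 2 and 3. AT5G59845 stood at -3.15, -6.64 (the limit) and -3.0. AT4G26830 was at the limit in set 3 alone, with -2.20, -2.35 and -6.64. AGL24, a MADS-domain factor known for promoting flowering, read -1.45, -6.64 (the limit) and -1.37, so that 1 array carries most of its estimate of -3.21 ± 0.70 (adjusted p = 0.0292). Without set 2 its value was -1.15 (adjusted p = 0.0576), and with the sets as a random block its adjusted p was 0.194.

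Among the higher genes with a limited value, AT3G05920 read 4.25, 6.64 (the limit) and 3.65, and AT1G62935 3.10, 6.64 (the limit) and 3.04. These were high on all arrays. AT2G16620 read 2.67, 6.64 (the limit) and 1.71. AT3G22030 (0.70, 6.64 and 4.33), AT3G32030 (0.09, 6.64 and 6.64) and AT2G11570 (6.64, 3.78 and 0.30) each had an array close to 1 or 0 beside one at the limit. Without set 2 the adjusted p was 0.206 for AT3G05920, 0.143 for AT1G62935, 0.355 for AT2G16620, 0.438 for AT3G22030, 0.675 for AT3G32030 and 0.347 for AT2G11570. The calls of AT3G05920 and AT2G11570 were also lost without set 1 (adjusted p = 0.0874 and 0.151), and those of AT3G05920, AT3G22030 and AT3G32030 without set 3 (adjusted p = 0.0615, 0.0975 and 0.274). A random block of sets left AT3G05920 (adjusted p = 0.102), AT2G11570 (adjusted p = 0.139), AT3G22030 (adjusted p = 0.102) and AT3G32030 (adjusted p = 0.245) uncalled, and so did all 33 arrays in one fit (adjusted p = 0.0922, 0.109, 0.0652 and 0.152). The estimates of these genes count a limited array at 6.64 and are fitted with the dye term, so they can lie above the mean of the 3 arrays and are no bounds.

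Genes that carry a symbol show which kinds of proteins were involved, and they were picked after their values were seen. ACT12, an actin of pollen, was the single called member of the gene lists: it read -2.03, -3.30 and -2.81 in sets 1, 2 and 3, for an estimate of -2.73 ± 0.33 (6.63-fold lower, adjusted p = 0.00022). The serine carboxypeptidase-like family had 4 of 32 tested members called lower, beside 0.833% of all probes, none called higher, and a median over all 32 of 0.10; the family was chosen because of these calls. scpl48 read -2.46, -2.60 and -2.03 (-2.38 ± 0.16, adjusted p = 1.26e-06), and SCPL49 read -2.22, -1.87 and -1.93 (-1.97 ± 0.12, adjusted p = 9.72e-07). The arrays of both lay close together and far below 0. scpl29 stood at -2.45 ± 0.32 (adjusted p = 0.000508) and scpl30 at -1.83 ± 0.34 (adjusted p = 0.0115), and scpl30 was not called without set 1 (adjusted p = 0.0985) or set 2 (adjusted p = 0.238).

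Further lower genes with a symbol were of mixed kinds. AT1G59740, which RefSeq also calls NPF4.3 of the nitrate and peptide transporter family, read -3.08, -2.29 and -2.61 (-2.53 ± 0.29, adjusted p = 0.000148). BGLU15, a beta-glucosidase, read -2.24, -2.30 and -2.02 (-2.25 ± 0.30, adjusted p = 0.000523). It was the only one called of 21 measured BGLU genes, beside 0.833% of all probes called lower, in a family chosen because of this call. ALDH2C4, an aldehyde dehydrogenase that makes ferulic and sinapic acid, stood at -1.53 ± 0.25 (adjusted p = 0.00341) and lost its call without set 2 (adjusted p = 0.132). TET11, a tetraspanin, was at -2.11 ± 0.48 (adjusted p = 0.0432), and CRT1b, a calreticulin of the endoplasmic reticulum, at -1.34 ± 0.26 (adjusted p = 0.0134). Leaving out any of the 3 sets took TET11 (adjusted p 0.0521 to 0.276) and CRT1b (adjusted p 0.066 to 0.105) past the threshold, and TET11 was not called with a random block of sets (adjusted p = 0.185). AT2G46140, also named LEA27 for a late embryogenesis abundant protein, had no value in set 2 and read -1.53 and -1.89 in sets 1 and 3 (-1.99 ± 0.37, adjusted p = 0.0103). Both of its arrays have the same dye orientation, and without the dye term it stood at -1.71 and was not called (adjusted p = 0.0517), nor was CRT1b (adjusted p = 0.123). AGL86, a MADS-domain gene, was 1.61-fold lower (-0.69 ± 0.12, adjusted p = 0.00646) and was not called without set 1 (adjusted p = 0.0747) or set 2 (adjusted p = 0.106).

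On the higher side, SAG29 is the other called SWEET transporter (SWEET15): it read 2.67, 3.53 and 2.29, with an estimate of 2.86 ± 0.49 (7.25-fold higher, adjusted p = 0.00504). With SWEET3 it makes 2 of 16 measured SWEET genes called higher, beside 0.698% of all probes, and none called lower, in a family chosen because of these calls, while SWEET7 stood at -1.53, -1.80 and -1.66 without passing the test (adjusted p = 0.283). HHP2, a heptahelical membrane protein, read 1.94, 3.01 and 2.18 (2.44 ± 0.28, adjusted p = 0.000151). FACT, a caffeoyl transferase acting on fatty alcohols, read 2.72, 3.65 and 1.69 (2.72 ± 0.57, adjusted p = 0.0211). All arrays of these genes were above 1.5. EXPA24, an expansin of the cell wall, stood at 2.57 ± 0.46 (adjusted p = 0.00646), and GSTU26, a glutathione S-transferase, at 2.12 ± 0.32 (adjusted p = 0.00183). Without set 2 the calls of SAG29 (adjusted p = 0.154), FACT (adjusted p = 0.444), EXPA24 (adjusted p = 0.227) and GSTU26 (adjusted p = 0.0774) were lost, as was that of FACT without set 1 (adjusted p = 0.108) or with a random block (adjusted p = 0.134).

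The remaining higher genes with a symbol were weaker or rested on one array. NDB2, an alternative NAD(P)H dehydrogenase of mitochondria, read 0.86, 6.64 (the limit) and 1.07, and PRA1.G1, a prenylated RAB acceptor, 1.79, 6.64 (the limit) and 1.91. In both, set 2 lay far above the other arrays. Without set 2 they stood at 1.03 (adjusted p = 0.0836) and 1.00 (adjusted p = 0.0817), and PRA1.G1 also missed the threshold with sets as a fixed block (adjusted p = 0.0579). A random block gave adjusted p of 0.228 for NDB2 and 0.285 for PRA1.G1. PRA7, another prenylated RAB acceptor, was 1.44-fold higher (0.52 ± 0.11, adjusted p = 0.0318) and MAP1B, a methionine aminopeptidase, 1.81-fold higher (0.85 ± 0.18, adjusted p = 0.0263). Neither passed when any one set was left out, with adjusted p of 0.0608 to 0.629 for PRA7 and 0.0635 to 0.182 for MAP1B, or with a random block (adjusted p = 0.147 and 0.0795).

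Measured members of the gene lists for pollen, tapetum and other flower tissues were called about as rarely as probes in general. Many members had no named probe. Measured were 6 of 43 tapetum and pollen wall genes, 1 of 11 tapetal transcription factors and 0 of 9 pollen coat genes. The counts therefore say little about these groups as a whole, and AT1G75920, beside EXL4 and EXL6, is counted in no list. Of 94 listed genes with a tested probe, in 18 of 22 lists, 1 was called in sample 3, beside 1.53% of all probes. That gene, ACT12, belongs to the pollen cytoskeleton list, whose 8 measured members had a median of -0.18 beside 0.04 over all probes. NET3A, an actin-binding protein of that list, read -0.94, -1.76 and -0.23 (-1.01 ± 0.25, adjusted p = 0.0742), and passed with sets as a fixed block (adjusted p = 0.0113). None of 5 pectin-modifying pollen genes (median -0.64), 9 pollen transporters (median 0.11), 12 pollen transcription factors (median 0.13) or 2 pollen tube receptor and signalling genes (median -0.82) was called. Of the latter, ANX1, a receptor kinase of the pollen tube, read -1.41, 1.83 and -6.64 (the limit), so its arrays disagreed in sign.

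Some tapetal genes had even values on the 3 sample 3 arrays and still missed the threshold, which uses the spread over all 21 series arrays. ATA27, an anther-specific beta-glucosidase gene of the tapetum, read -4.57, -5.16 and -4.74 in sets 1, 2 and 3 (estimate -4.85 ± 1.3, adjusted p = 0.111), and it passed with all 33 arrays in one fit (adjusted p = 0.0309). SHT, a tapetal enzyme that makes the hydroxycinnamoyl spermidines of the pollen coat, read -5.77, -4.20 and -5.25 (-4.49 ± 1.74, adjusted p = 0.383). AMS, a bHLH regulator of the tapetum, stood on the other side of 0, at 1.87, 2.22 and 1.76 (2.01 ± 0.58, adjusted p = 0.17). In these 3 genes no sample 3 array came near 0. This adds no support, because ATA27 and SHT were picked as the uncalled members of their list with the largest ratios. Over the 6 measured tapetum and pollen wall genes the median was -0.44, with none called.

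No member was called in the lists for meiosis (7 measured), nectary (2), carpel, ovule and stigma (5), petal and sepal growth (5), meristem (2), photosynthesis (9), flavonoids (6), defence and abiotic stress (6), cell cycle (4), or late embryogenesis and oil body proteins (6). Their medians lay between -1.06 for the meristem list and 1.39 for the last. The 9 photosynthesis genes stood at -0.14 to 0.08. UFO, a regulator of petals and stamens in the petal and meristem lists, read 1.23, -6.64 (the limit) and -1.40. SWEET9, the sugar exporter of nectaries, read -6.64 (the limit), 0.12 and -0.47, and JMT, which makes methyl jasmonate, 0.83, 0.22 and -0.88. THI2.1, a thionin of the defence list, was above 0 on all arrays, at 3.49, 6.64 (the limit) and 1.43 (adjusted p = 0.184), and passed with all 33 arrays in one fit (adjusted p = 0.0267). Several uncalled list members owed a high estimate to set 2, at the limit while sets 1 and 3 lay between -0.77 and 1.11. These were LEA4-5 and M10 of the late embryogenesis list, with -0.00 and -0.31 in sets 1 and 3 for the first and -0.77 and -0.11 for the second. DFR and UF3GT of flavonoid synthesis (0.02 and -0.27, 0.27 and 0.85) and the MADS-domain genes AGL67 and AGL94 (-0.77 and 1.11, -0.48 and 0.65) had the same pattern. ZYP1a of the meiosis list was at opposite limits in sets 2 and 3, and CHX21 had no value in set 2 and was at the limit in set 3. The estimates of BGAL15, TUB9, SPO11-2, HIS4, COR15A, AUR1, PSBY, PSAE-1, RALFL25, ALC, CLV3, INO and PTL lay between -0.71 and 0.34. ADPG1, a polygalacturonase of anther dehiscence, was the one measured member of its list, at 1.14 ± 1.32 (adjusted p = 1).

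**Figure D2:**
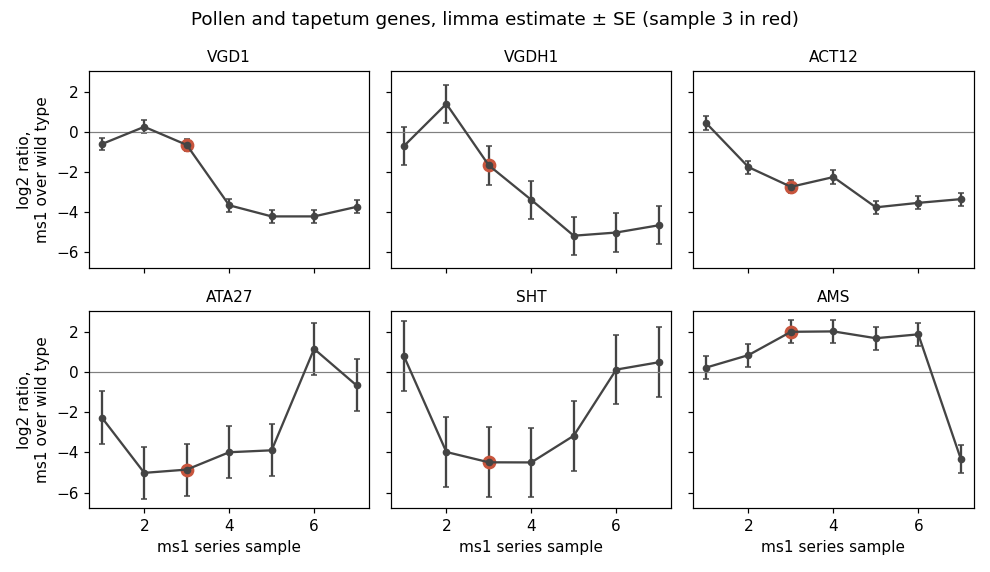
Log2 ratios of ms1 over wild type (limma estimate ± SE, 3 arrays each) of 3 pollen genes (VGD1, VGDH1, ACT12) and 3 tapetal genes (ATA27, SHT, AMS) in series samples 1 to 7. Sample 3, in red, is at -0.64 for VGD1 and at -4.85 for ATA27, while sample 7 is at -3.73 and -0.66.

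Across the series the sample 3 calls were centred on samples 3 and 4. The median ratio of the 217 lower calls was -0.03, -0.73, -1.77, -1.22, -0.49, -0.04 and -0.04 in samples 1 to 7, and that of the 182 higher calls 0.10, 0.60, 1.67, 1.32, 0.73, 0.16 and -0.0036. The median over all probes lay between 0.00 and 0.08 in each sample. Since the probes were chosen in sample 3, its own median had to be extreme, and the other samples are a description in one shared fit. Sample 3 had the ratio farthest from 0 in 135 of the lower and 125 of the higher calls, and sample 4 in 46 and 45. The number of calls was 2, 138, 399, 331, 350, 230 and 148 in samples 1 to 7.

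Of the sample 3 calls, 67 lower and 26 higher ones were called in the same direction in sample 2 (23.3% of the sample 3 calls and 67.4% of those of sample 2). In sample 4 it was 118 lower and 119 higher (59.4% and 71.6%), and in sample 5 64 lower and 64 higher (32.1% and 36.6%). No probe called both in sample 3 and in sample 2 or 4 had opposite directions there. Probes called in sample 3 alone of a pair could differ in sign, as AT1G27710 did (3.38 in sample 3, -0.62 in sample 2). In samples 6 and 7 the shared share was 2.76% and 1.25% of the sample 3 calls. The set 2 array of sample 2 had 17.7% of its gene-probe values at the limit and 5.09% missing. For the set 2 array of sample 4 these were 2.39% and 0.119%. The part of that sample 2 array in the shared counts and in the contrast with sample 2 was not tested. Samples 2 and 4 shared 35 of the lower and 21 of the higher calls with sample 3, while 62 lower and 56 higher calls passed in sample 3 and in no other sample, a count that does not test a difference. HHP2 turned sign within the series: it stood at 1.54, 2.44 and 1.57 in samples 2, 3 and 4 and at -2.62, -2.36 and -1.84 in samples 5, 6 and 7 (SE 0.28 each, adjusted p from 0.00012 to 0.0222). EXPA24 was at -2.18 in sample 6 beside 2.57 in sample 3.

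**Figure D3:**
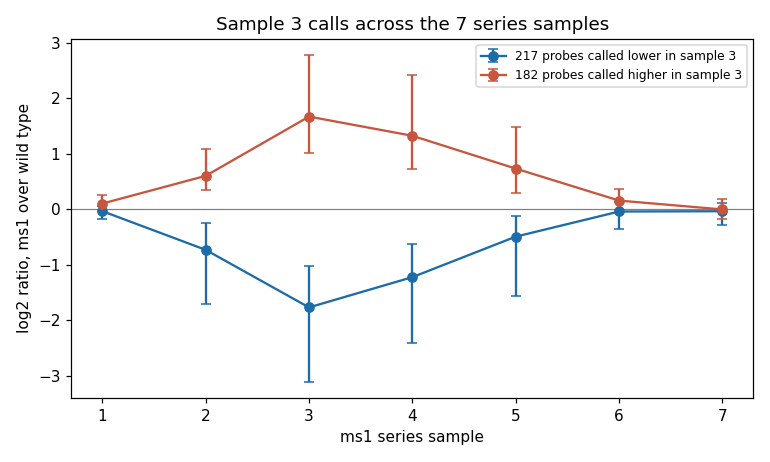
Median log2 ratio of ms1 over wild type (vertical axis) in series samples 1 to 7 for the 217 probes called lower and the 182 called higher in sample 3, with bars from the first to the third quartile of the probes. Both lines are farthest from 0 in sample 3, where the probes were chosen, and lie near 0 in samples 1, 6 and 7.

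The test of the difference itself separated few genes of sample 3 from its neighbours. Against sample 2, 26 of 26025 probes were called (0.0999%), 11 with sample 3 lower (0.0423%) and 15 with sample 3 higher (0.0576%), and 1276 had an unadjusted p under 0.05. In 25 of the 26 the ratio was farther from 0 in sample 3. AT5G50780 had the lowest adjusted p: its arrays read -4.16, -3.18 and -3.60 in sample 3 and -0.46, 0.07 and -0.40 in sample 2, a difference of -3.39 ± 0.32 (adjusted p = 0.000901). This was the only one of these genes still called without the sample 3 array of set 1 and without that of set 2. In each of these fits the count was 1. Without the sample 3 array of set 3 the count was 11. No contrast was refitted with a set left out of both samples.

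AT1G59740 (NPF4.3) read -3.08, -2.29 and -2.61 in sample 3 and -0.29, 0.67 and -0.54 in sample 2 (difference -2.61 ± 0.41, adjusted p = 0.0351). AT3G54530 and AT4G37900 were low in both samples and lower in sample 3, with differences of -2.86 ± 0.46 (adjusted p = 0.0351) and -2.71 ± 0.44 (adjusted p = 0.0383). The arrays of the 2 samples did not overlap in any of these, which adds no support because the genes were picked as called in this contrast. scpl48 differed by -1.32 ± 0.22 (adjusted p = 0.0408). On the other side, AT1G27710 read 3.64, 2.84 and 3.65 in sample 3 and -0.62, -0.29 and -0.95 in sample 2, a difference of 4.00 ± 0.62 (adjusted p = 0.0343). AT3G07450 differed by 3.44 ± 0.54 (adjusted p = 0.0351), AT5G02540 by 2.79 ± 0.48 (adjusted p = 0.048), AT1G13910 by 2.74 ± 0.46 (adjusted p = 0.0408) and AT5G44540 by 2.47 ± 0.38 (adjusted p = 0.0343). With sets as a fixed block the difference of AT5G02540 missed the threshold (adjusted p = 0.0529). Without set 1 or set 2 none of these 9 genes passed (adjusted p from 0.149 for AT1G27710 to 0.312 for AT5G02540). Without set 3 only AT4G37900 and AT5G44540 of the 9 passed (adjusted p from 0.0545 for scpl48 to 0.0795 for AT1G27710 in the others). With all 33 arrays in one fit AT5G44540 (adjusted p = 0.112), AT5G02540 (adjusted p = 0.104), AT3G07450 (adjusted p = 0.0736) and AT1G27710 (adjusted p = 0.183) were lost. Without the dye term, of the 9 only AT5G44540 and AT1G27710 passed (adjusted p from 0.0525 for scpl48 to 0.109 for AT1G59740 in the others). With arrays scaled to a common spread most of the 9 were lost, AT5G44540 (adjusted p = 0.0559) and AT1G27710 (adjusted p = 0.0689) among them.

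Against sample 4, 5 of 26049 probes were called (0.0192%), 4 with sample 3 lower (0.0154%) and 1 with sample 3 higher (0.00384%), and 541 had an unadjusted p under 0.05. AT1G34640 read -1.26, -2.20 and -1.65 in sample 3 and 0.38, -0.18 and -0.05 in sample 4, a difference of -1.75 ± 0.21 (adjusted p = 0.00926). AT1G20150 read -2.82, -4.08 and -2.92 in sample 3 and 0.42, -2.06 and -0.37 in sample 4 (difference -2.61 ± 0.35, adjusted p = 0.0266). VGD1 went the other way: it read -2.10, -0.15 and -0.29 in sample 3 and -5.03, -2.29 and -4.23 in sample 4, a difference of 3.01 ± 0.45 (adjusted p = 0.0446). The arrays of the 2 samples did not overlap in any of the 3 genes, though for VGD1 the nearest were at -2.10 and -2.29. Since the genes were picked as called in this contrast, this adds no support. With sets as a fixed block 3 of the probes passed and VGD1 did not (adjusted p = 0.055). The count was 5, 1 and 2 without the sample 3 arrays of sets 1, 2 and 3. AT1G34640 and VGD1 passed without that of set 1 only (adjusted p from 0.0649 to 0.187 without the others). AT1G20150 passed with no set left out (adjusted p = 0.0878 to 0.138). It was also lost with all 33 arrays in one fit (adjusted p = 0.749) and with arrays scaled to a common spread (adjusted p = 0.237). Without the dye term none of these 3 passed (adjusted p = 0.14 for AT1G34640 and 1 for the others).

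**Figure D4:**
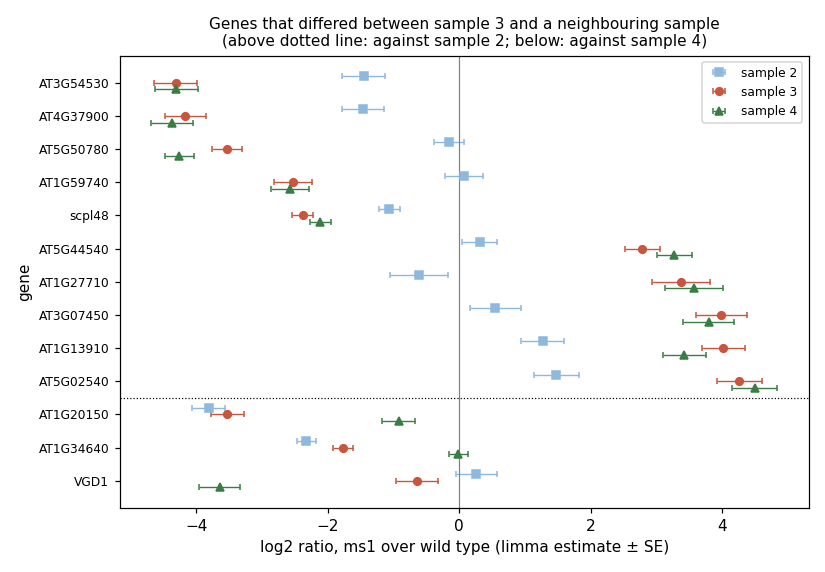
Log2 ratios of ms1 over wild type (limma estimate ± SE, 3 arrays each) in samples 2, 3 and 4 for named genes whose ratio in sample 3 differed from that in sample 2 (above the dotted line) or sample 4 (below it). Sample 3 lies beside sample 4 in the upper genes, and beside sample 2 in AT1G20150 and AT1G34640.

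Whole ms1 inflorescences, hybridised on 4 other arrays, mostly had the same signs as sample 3. Of 216 lower calls with 4 values, 156 were negative on all 4 arrays (72.2%, beside 7.25% of all probes tested), and of 181 higher calls 133 were positive on all 4 (73.5%, beside 7.93%). The ratios were smaller, with medians of -0.62 and 0.62. The labels do not say whether the wild-type RNA is shared between these experiments, so no test was made.

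In nzz inflorescences, which lack sporogenous tissue and a normal tapetum, the lower and the higher calls parted ways. Of the 217 lower calls 186 were negative on all 4 nzz arrays (85.7%, beside 14% of all probes), with a median of -0.90. The 182 higher calls were positive on all 4 in 19 cases (10.4%, beside 22.3%) and negative on all 4 in 80 cases (44%), with a median of -0.26. Among the 12 highest genes of sample 3, 9 were negative on every nzz array and none was positive on all. SWEET3 stood at a mean of -2.50 (range -2.93 to -1.62) in nzz, AT3G07450 at -3.23 (-3.66 to -2.61) and HHP2 at -2.40 (-2.82 to -1.98). AMS, at 2.01 in sample 3, averaged -5.32 in nzz (-6.64, the limit, to -4.84). All 12 lowest genes were negative on every nzz array, among them AT1G26720 at -5.77 (-6.58 to -5.17). In early buds of ap3 the lower calls were negative on all 4 arrays in 16.3% of cases and the higher calls positive in 5.06%, beside 7.98% and 8.96% of all probes, while 15.2% of the higher calls were negative on all 4.

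The places of the probes on the array's numbering and of the genes on the chromosomes add a limit on some calls. Read in blocks of 96 consecutive probe numbers, 12 to a row and 8 rows, 2 groups of touching calls stood out. One held 18 lower calls in 1 block and the other 15 higher calls in 1 block. Each group lay at one edge of its block as laid out here. Lower calls that follow by probe number at the opposite edge, such as AT2G44230 (-1.05) and AT2G32350 (-0.64), are not counted in the group of 18. Of the positions touching a lower call 8.02% held another lower call (beside 0.833% of all probes), and of those touching a higher call 6.91% held a higher one (beside 0.698%). AT5G44540 and AT2G32340 belong to these groups, as do 11 of the 26 calls against sample 2. The part of probe order in these calls was not tested. Without the 33 probes of both groups, 366 calls in sample 3 and 15 against sample 2 were left.

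**Figure D5:**
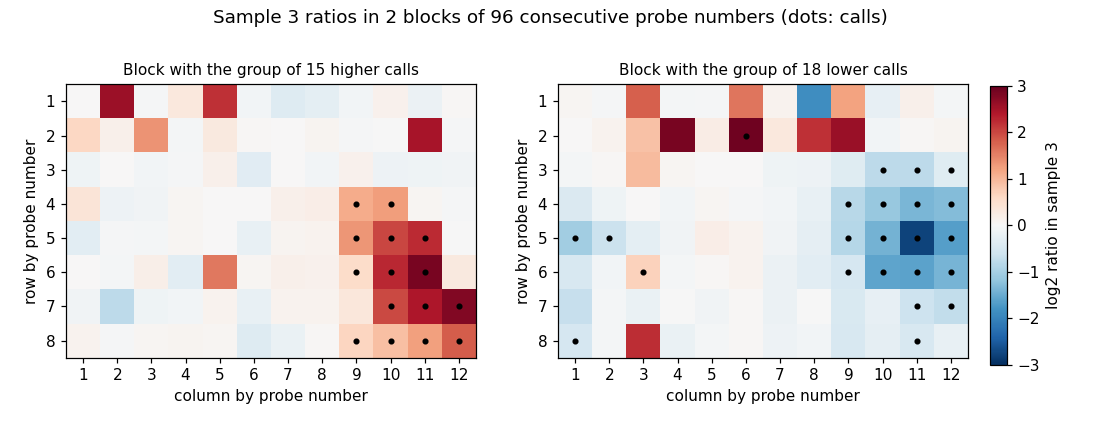
Log2 ratio in sample 3 (colour, from -3 to 3) of 2 blocks of 96 consecutive probe numbers, arranged in 8 rows of 12, with dots on called probes and grey where no value was tested. The left block holds the group of 15 touching higher calls and the right block the group of 18 touching lower calls, both at the right edge.

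On the chromosomes, 7 pairs of neighbouring genes were called together, 5 of them in one direction. The neighbouring pairs among all measured genes were not counted, so these numbers have no share to be set beside. Besides AT1G26710 and AT1G26720 the 5 pairs were AT1G28700 and AT1G28710 (-1.82 and -1.87), AT4G04750 and AT4G04760 (-1.69 and -2.61), AT2G32340 and AT2G32350, and AT2G44220 and AT2G44230. Of the 7 pairs, 3 also had consecutive probe numbers, with AT1G26710 and AT1G26720 among them. A member in the group of 18 touching lower calls was present in 3 of the 7. AT5G44400 and AT5G44410 stood on opposite sides of 0, at -4.51 and 2.31, with distant probe numbers. Genes in such pairs can be similar in sequence, and whether their probes share signal was not tested.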

How the data were processed

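The authors deposited 1 table of ratios between the RNAs of each array, which appear to be log10 values already turned to one direction. Base and direction are inferred, and how spots were scanned or normalized is not given in the sources used here. Of 26540 lines, 26090 are gene probes and 450 controls, left out of tests. Per the labels' protocols, total RNA was amplified and dye-coupled. Deposited log10 values were turned and multiplied by 3.32 to give log2 ratios of ms1 over wild type. The platform annotation with the RefSeq table of TAIR10.1 names 13960 probes. A gene with several probes is named by its lowest p.

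The 21 series arrays were fitted with limma 3.58.1 (R 4.3.3, statmod 1.5.0): 1 coefficient per sample and a dye term, moderated by eBayes, with at least 2 of 3 values and Benjamini-Hochberg adjustment over all probes tested. The pooled spread assumes samples vary alike. Dye and set 2 cannot be told apart. The dye term itself passed in 7184 of the 26090 gene probes (limma, Benjamini-Hochberg adjusted p under 0.05), beside 399 probes called in sample 3. The script was tested on simulated data. The number of arrays limits the precision.

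By rule, named genes are the 12 most negative and 12 most positive called genes of one sign with no limited value, up to 6 each with one, called list members with the 2 largest uncalled of each list, and up to 5 genes a direction per contrast. Genes named for their symbol were chosen after their values were seen. From the 656 list symbols, 557 matched 1 locus. The members and lists were chosen with earlier results of these data known. Sets share a collection day per the labels, and deviations of same-set arrays correlated at r = 0.25 to 0.79 in 63 pairs, so sets pair the samples; same-set arrays also share the dye orientation. Alternatives changed the dye term, direction, centring, scaling, limits, missing values, arrays fitted, set as a block and moderation, or left out 1 sample 3 array.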

Additional observations from a re-analysis of the deposited data

Results flagged for a closer look

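Among 59 called genes named for sample 3, the 4 ms1 inflorescence arrays were searched for an array far from the other 3, by Dixon's test at its critical value of 0.829. It was met in 6 genes, and chance flags about 1 in 20 groups. AT1G06260 was at -5.32 on replicate 4 and at -0.03, 0.01 and 0.01 on replicates 1 to 3. AT3G54530 stood at -3.20 on replicate 4 with 0.04, -0.21 and -0.20 on the others, and AT5G59845 at -1.28 on replicate 4 with -0.12, -0.01 and 0.00. These 3 genes, at -5.13, -4.32 and -4.36 in sample 3, were thus low on 1 whole-inflorescence array only. In AT5G07600 and AT2G03200 replicate 1 was apart, at -1.43 and -0.87, with the other arrays between -5.05 and -4.84 and between -3.90 and -3.67. AT1G13910 was at 2.99 on replicate 3 and at 2.54, 2.57 and 2.55 on the others.

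Of the genes whose ratios differed between series samples by limma's contrast, the 13 picked by the naming rule are given. Against sample 2, sample 3 was lower by the contrast values -3.39 (AT5G50780), -2.86 (AT3G54530), -2.71 (AT4G37900), -2.61 (AT1G59740) and -1.32 (scpl48). It was higher by 2.47 (AT5G44540), 2.74 (AT1G13910), 2.79 (AT5G02540), 3.44 (AT3G07450) and 4.00 (AT1G27710). Against sample 4 the values were -2.61 (AT1G20150), -1.75 (AT1G34640) and 3.01 (VGD1).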

How the results depend on the processing

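The count of 399 calls in sample 3 stayed between 292 and 572 under the alternatives, with 3 exceptions: 64 with the values read as dye ratios (54 lower and 10 higher, none among the 399), 910 with the 3 arrays fitted alone (166 lower and 744 higher, 70 of them among the 399), and 204 without set 2 in a range of 204 to 346 over the sets left out. Sets as a fixed replicate block gave 520 calls, 395 of them among the 399, and as a random replicate block 292. Against sample 2 the 26 calls became 6 without the dye term, 0 read as dye ratios (1129 unadjusted), 9 after scaling, 46 without limited probes, 3 with only the compared arrays, 42 with a random replicate block, 15 without the touching calls (chosen after seeing the data), and 1 to 11 without a set. Against sample 4 the 5 calls became 1 without the dye term, 0 read as dye ratios (400 unadjusted), 3 after scaling, 0 with only the compared arrays (553 unadjusted), 3 with a fixed replicate block and 1 to 5 without a set. Read as dye ratios, 13 genes changed sign: AT5G59845 (0.70), AGL24 (1.61), ACT12 (0.29), PRA7 (-0.044), FACT (-0.18), NDB2 (-1.80), AT1G47480 (-0.43), PRA1.G1 (-1.32), AT2G16620 (-1.17), AT3G22030 (-0.73), AT1G62935 (-0.77), AT3G32030 (-0.44) and AT3G05920 (-0.67). The cause was not tested. Of 59 named calls in sample 3, 51 were kept without the dye term, 58 after centring, 57 after scaling, 20 with the 3 arrays alone, 0 read as dye ratios, 53 with all 33 arrays, 57 and 42 with a fixed and a random block, and 29 without set 2; without sets 1 and 3, 41 and 47 of the 58 tested were kept.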
